A study of Homo sapiens with 12 samples.

Results

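The response of HCT116 cells to doxorubicin was compared between cells that carried a plasmid for a subunit of the SMC5/6 complex and cells that carried a control plasmid. For each locus the quantity of interest was an interaction: the doxorubicin change averaged over NSE4 and SMC5 cells, minus the doxorubicin change in GFP cells, on the log2(FPKM + 1) scale. FPKM is the number of sequenced fragments scaled to transcript length in kilobases and to the library's total. A value of 1 on this scale means that the drug raised a locus 2-fold more, relative to its level without drug, in the plasmid cells than in GFP cells. A value of -1 means 2-fold less. Both folds are of FPKM + 1, so folds of FPKM itself are larger at low loci. Loci were described where the mean FPKM reached 5 in at least 1 of the 6 groups, which held for 10824 of the 57908 loci in the table. Of these, 10727 entered the fit, 9592 of them protein coding, and 8847 of the 10824 reached 5 FPKM in all 6 groups. The other 97 were at 1 FPKM or more in only 1 sample and were left out by the filter of 2 such samples; 22 of them were highest in SMC5 cells with doxorubicin, a group of 1 sample.

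HCT116 is a human colorectal cancer cell line whose genotype the labels give as WT in all groups. Cells were transfected with a control plasmid, called GFP in the sample names and a vector in the design text, with NSE4A-flag (NSE4 cells) or with SMC5-flag (SMC5 cells). One day later each transfected culture was split, and 1 portion received 1000 nM doxorubicin for 24 h while the other received PBS. The 6 groups were therefore GFP, NSE4 and SMC5 cells with PBS and the same 3 with doxorubicin, with 2 libraries each and transfection common to all of them. The sources used here do not say what share of cells took up a plasmid, and each value is an average over all cells of a culture. No label says whether the 2 libraries of a group are separate cultures, and p-values here therefore reflect spread between libraries that may be technical.

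SMC5/6 is a ring-shaped complex related to cohesin and condensin that holds DNA and acts in the repair of broken and stalled replication forks by homologous recombination. SMC5 and SMC6 form the arms of the ring, NSE4A (gene NSMCE4A) is the kleisin subunit that bridges their head domains, NSMCE1 and NSMCE3 bind the kleisin, and NSMCE2 is a SUMO ligase attached to SMC5. Doxorubicin traps topoisomerase II on DNA, breaks DNA and activates the damage response, which raises genes of cell cycle arrest and apoptosis. The design text names inhibition of growth and doxorubicin-induced apoptosis as the question, so genes of those pathways are described after the loci that passed the test.

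The interaction was called at 5 loci, none of them protein coding. The sequences of 3 are shown because these are short and were listed at 0 in every library of some groups, and length enters every FPKM value. The sequences are those of GENCODE 29 (GRCh38), 5′ to 3′. SNORD91A is a box C/D small nucleolar RNA on chromosome 17 with a transcript of 95 bases, and the capitals mark the letters TGATG (box C, 2 matches) and CTGA (box D, 3 matches), searched on the transcribed strand. Both motifs occur in 90.2% of 275 annotated SNORD genes and in 55.4% of 545 annotated small nucleolar RNA genes, so the match is a description of the class.
SNORD91A: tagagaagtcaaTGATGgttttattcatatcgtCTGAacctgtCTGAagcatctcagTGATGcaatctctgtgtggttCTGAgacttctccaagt
AC032044.2 is a transcript of 186 bases on chromosome 17 marked in the annotation as yet to be experimentally tested. AC073107.2 is an unprocessed pseudogene of 238 bases on chromosome 7. Both have no part set in capitals, because the motifs were marked in SNORD91A alone. AC032044.2 holds 0 matches of TGATG and 2 of CTGA, and AC073107.2 holds 1 of each.
AC032044.2: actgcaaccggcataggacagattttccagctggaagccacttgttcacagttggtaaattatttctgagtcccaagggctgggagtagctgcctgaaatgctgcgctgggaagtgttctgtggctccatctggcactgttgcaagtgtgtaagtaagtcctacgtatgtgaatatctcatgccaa
AC073107.2: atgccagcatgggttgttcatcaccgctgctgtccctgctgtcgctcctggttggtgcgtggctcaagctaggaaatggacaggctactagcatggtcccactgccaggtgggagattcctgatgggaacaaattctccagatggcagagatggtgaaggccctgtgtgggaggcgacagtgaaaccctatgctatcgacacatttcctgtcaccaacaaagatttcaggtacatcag

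Depth, estimated from the FPKM step of a single fragment, ran from 12.9 to 18.6 M fragments per library. The 2 columns of doxorubicin-treated SMC5 cells shared 1091 identical values and had a Pearson r of 0.99943, against 0 identical values and 0.98682 to 0.98805 in the other 5 pairs. At low FPKM the SD of the log2 ratio between the 2 columns was 0.153, against 1.256 to 1.304 in the other pairs. At high levels they did differ, with 5090 and 3556 FPKM for MT-ND2 and 1411 and 1685 for IFI6. Their ratio followed GC content more closely than in any other pair (Spearman -0.813, against -0.275 to -0.545). The mean of both columns was used as 1 sample. SMC5 cells with drug thus had no replicate and were assumed to vary like the other groups. Of the 11 epithelial markers 10 reached 5 FPKM, with a summed level of 3692 to 4748. Mesenchymal markers summed to 29.8 to 55.8 (3 of 9 reached 5 FPKM), haematopoietic markers summed to 85.3 to 122 (5 of 6 below 1, the sum being almost wholly a locus that CD14 shares with NDUFA2), and hepatocyte and neural markers summed to 1.87 to 4.81 with TTR listed at 0. In a bulk sample, fewer cells of a type and less RNA per cell cannot be told apart.

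The transfected genes checked the labels. NSMCE4A stood at 68.7 and 74.8 FPKM in GFP cells with PBS, 85.7 and 89.4 in GFP cells with doxorubicin, 4069 and 4186 in NSE4 cells with PBS, and 5283 and 6287 in NSE4 cells with doxorubicin. In SMC5 cells it was 43.1 and 32.6 with PBS and 37.5 with doxorubicin, below every GFP sample. SMC5 stood at 875 and 979 FPKM in SMC5 cells with PBS and at 811 with doxorubicin, against 7.02 to 34.4 in the 8 GFP and NSE4 samples. Both plasmids were thus present with and without the drug, and their genes' interaction values (NSMCE4A -0.04, SE 0.18; SMC5 0.60, SE 0.96) did not pass. The wide SE of SMC5 follows its spread between replicates, since GFP cells with PBS held 33.5 and 8.76. SMC6 was at 8.89 to 10.8 FPKM in all 11 samples, with an interaction of 0.02 (95% interval -0.33 to 0.38). NSMCE1, NSMCE2 and NSMCE3 had interaction values of -0.21, -0.08 and -0.16. NSMCE1 fell with the drug in NSE4 and SMC5 cells (-0.34 and -0.56, adjusted p = 0.0434 and 0.0196) and stood at -0.25 in GFP cells (adjusted p = 0.116). SLF2, which recruits the complex to damaged DNA, had -0.15, and none of the 7 measured genes of the complex and its loaders was called.

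The doxorubicin response itself was large in each of the 3 backgrounds. In GFP cells 2083 of the 10727 loci rose and 1915 fell, in NSE4 cells 1963 rose and 1908 fell, and in SMC5 cells, with 1 drug-treated sample, 1377 rose and 1402 fell. Over all 15833 loci fitted the drug called 31.1% in GFP, 30.2% in NSE4 and 20.9% in SMC5 cells. By direction, 17% rose and 14.1% fell in GFP cells, 16.3% rose and 13.9% fell in NSE4 cells, and 11% rose and 9.87% fell in SMC5 cells. The drug changes of the 3 backgrounds use different samples. Across loci, which are not independent replicates, they correlated at Pearson r 0.793 between GFP and NSE4 cells, 0.751 between GFP and SMC5 cells and 0.744 between NSE4 and SMC5 cells, with Spearman rho of 0.88, 0.868 and 0.879. Of the 1963 loci that rose in NSE4 cells 1944 (99%) were also above 0 in GFP cells, with a median log2 change of 0.72 there against 0.74 in NSE4 cells. Of the 1402 that fell in SMC5 cells 1391 (99.2%) were below 0 in GFP cells, with medians of -0.73 in GFP and -0.78 in SMC5 cells. The 2083 that rose in GFP cells had medians of 0.725 in GFP, 0.675 in NSE4 and 0.682 in SMC5 cells. The median was largest in size in whichever background the loci were chosen, so these gaps are no plasmid effect. Over all 10727 loci the median in GFP cells was 0.012.

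**Figure D1:**
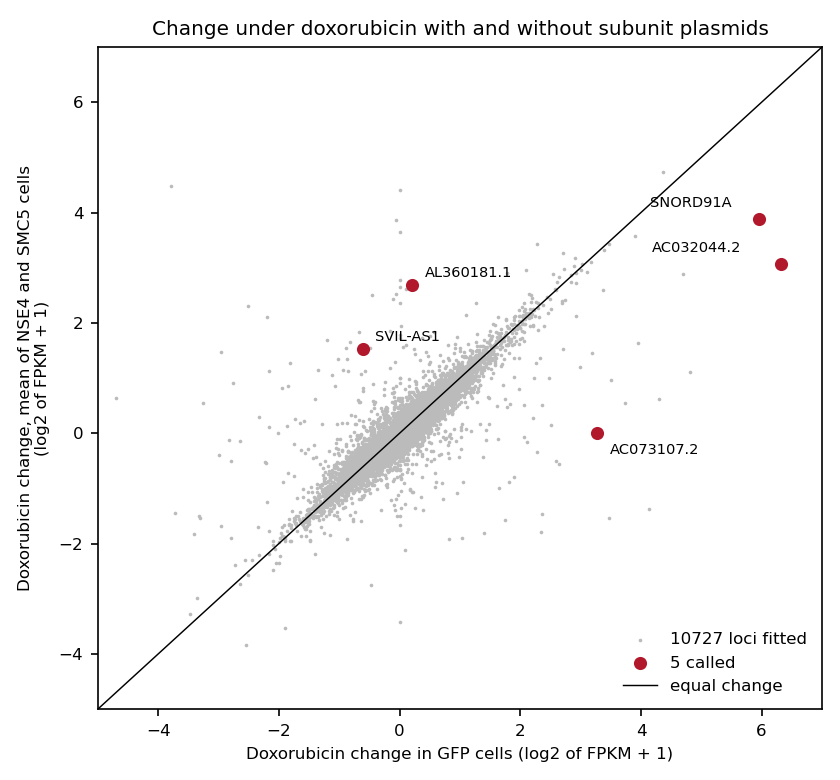
Doxorubicin change of the 10727 fitted loci in GFP cells (x axis) and averaged over NSE4 and SMC5 cells (y axis), both in log2 of FPKM + 1. Grey points lie along the line of equal change, and the 5 red points are the loci called in the interaction (AL360181.1 stands for the locus shared with BANF1P2), of which 2 lie above the line and 3 below.

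Against that response the interaction of both plasmids was called at 5 of 10727 loci, 2 higher and 3 lower, by limma with a Benjamini-Hochberg adjusted p under 0.05; over all 15833 loci fitted this was 0.0316%. Without the filter on low values the count was 28, with 23 higher and 5 lower; 21 of the 28 were among the 97 loci that the filter leaves out, all 21 higher and highest in the lone SMC5 sample with doxorubicin. At an unadjusted p under 0.05 there were 285 loci (2.66%). None of the 9592 protein-coding loci was called by limma; the smallest adjusted p among them was 0.866, and 178 (1.86%) had an unadjusted p under 0.05. The median interaction was -0.01 with quartiles of -0.11 and 0.09, and the median SE was 0.18. The test left a measured limit on size: for 9775 loci (91.1%) the 95% interval of the interaction lay within -1 and 1. A difference of 2-fold or more in FPKM + 1, averaged over both plasmids, was outside the interval there. A single plasmid could differ by more, and so could FPKM itself at low loci. The share with an interval within -1 and 1 was 94.8% for protein-coding loci (9090 of 9592). Among them 38 lay beyond 1 in size, and 17 of those had an unadjusted p under 0.05. Protein-coding calls appeared only where 1 library was left out. These were ABHD4 (3.91) without GFP replicate 1 with PBS, the BRCA1 locus (-1.97) without NSE4 replicate 1 with PBS, CC2D1B (-2.58) and a locus of ZNF808 and neighbours (-4.42) without NSE4 replicate 2 with PBS, and ZFP90 (3.01) without SMC5 replicate 2 with PBS. The DLG4 locus was called at 4.0 without GFP replicate 1 with doxorubicin and at -4.67 without replicate 2, so the 2 libraries gave opposite directions. These 6 loci were chosen after their values were seen. The count of all calls was 8 without NSE4 replicate 1 with PBS and 9 without NSE4 replicate 2 with PBS, NSE4 replicate 1 with doxorubicin or SMC5 replicate 2 with PBS.

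The 5 called loci fell into 3 patterns across samples. AC032044.2 was listed at 0 in all 6 samples with PBS and in both NSE4 samples with doxorubicin, and at 89.1 and 70.6 FPKM in GFP cells and 69.0 in SMC5 cells with doxorubicin. Its interaction was -3.26 (SE 0.19, adjusted p = 0.00146), and it came from the NSE4 arm alone: -6.33 in NSE4 cells (adjusted p = 1.53e-05) against -0.20 in SMC5 cells (SE 0.24), and -6.13 for NSE4 minus SMC5 (adjusted p = 2.5e-05). It lies on the strand opposite to YWHAE, the gene of 14-3-3 epsilon, whose interaction was 0.02 (SE 0.10). SNORD91A had the same pattern of zeros, with 69.2 and 53.3 FPKM in GFP cells and 214 in SMC5 cells with doxorubicin. Its interaction was -2.07 (SE 0.19, adjusted p = 0.0127), made of -5.95 in NSE4 cells (adjusted p = 1.53e-05) and 1.80 in SMC5 cells (adjusted p = 0.189), which differed by -7.75 (adjusted p = 8.72e-06). It lies within TSR1, a ribosome maturation factor, on the same strand, and TSR1 had an interaction of -0.17 (SE 0.17). AC032044.2 and SNORD91A passed the filters only through GFP and SMC5 cells with doxorubicin. The filters therefore set the direction of their NSE4 interaction and of NSE4 minus SMC5. Those calls are descriptions, and the average over both plasmids includes the NSE4 value.

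AC073107.2 was listed at 9.64 and 7.75 FPKM in GFP cells with doxorubicin and at 0 in the other 9 samples. Both plasmids therefore had the same value, -3.27 (SE 0.25, adjusted p = 0.00563 for their average), with a difference between them of 0.00 (SE 0.31). This locus passed the filters only through GFP cells with doxorubicin, the group in which it is high, so it had to differ and its call is a description. With so many zeros, the log2 values of these 3 loci depend on the pseudocount of 1, and each library's value says more than the fold. Groups listed at 0 in every library show no spread, so the SEs and adjusted p of these loci do not measure spread between libraries there. With a pseudocount of 0.1 the SEs were 0.547 for AC032044.2, 0.528 for SNORD91A and 1.221 for AC073107.2.

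SVIL-AS1, on the strand opposite to the supervillin gene SVIL, was expressed in every sample. It was at 12.1 and 13.0 FPKM in GFP, 12.2 and 11.9 in NSE4 and 10.7 and 13.2 in SMC5 cells with PBS. With doxorubicin it was 7.08 and 8.73 in GFP cells, 8.97 and 11.1 in NSE4 cells and 125 in the lone SMC5 sample. The interaction of 2.13 (SE 0.19, adjusted p = 0.0127) was 3.91 in SMC5 cells (adjusted p = 0.000934) and 0.36 in NSE4 cells (SE 0.21). SVIL itself had an interaction of 1.26 with an SE of 0.92. The locus of AL360181.1 and the pseudogene BANF1P2, opposite to PRAP1, was at 0.69 to 1.60 FPKM in 10 samples and at 68.0 in SMC5 cells with doxorubicin. Its interaction was 2.47 (SE 0.23, adjusted p = 0.0127), with 4.95 in SMC5 cells (adjusted p = 0.000934) and 0.00 in NSE4 cells (SE 0.25). Both calls rest on 1 sample, whose deposited columns held 117 and 134 for SVIL-AS1 and 65.9 and 70.1 for AL360181.1. The AL360181.1 locus reached 5 FPKM only in that sample, so the filter set its direction and its call is a description. No source used here says whether the counting used strand, so reads of these loci and of the genes opposite cannot be told apart.

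**Figure D2:**
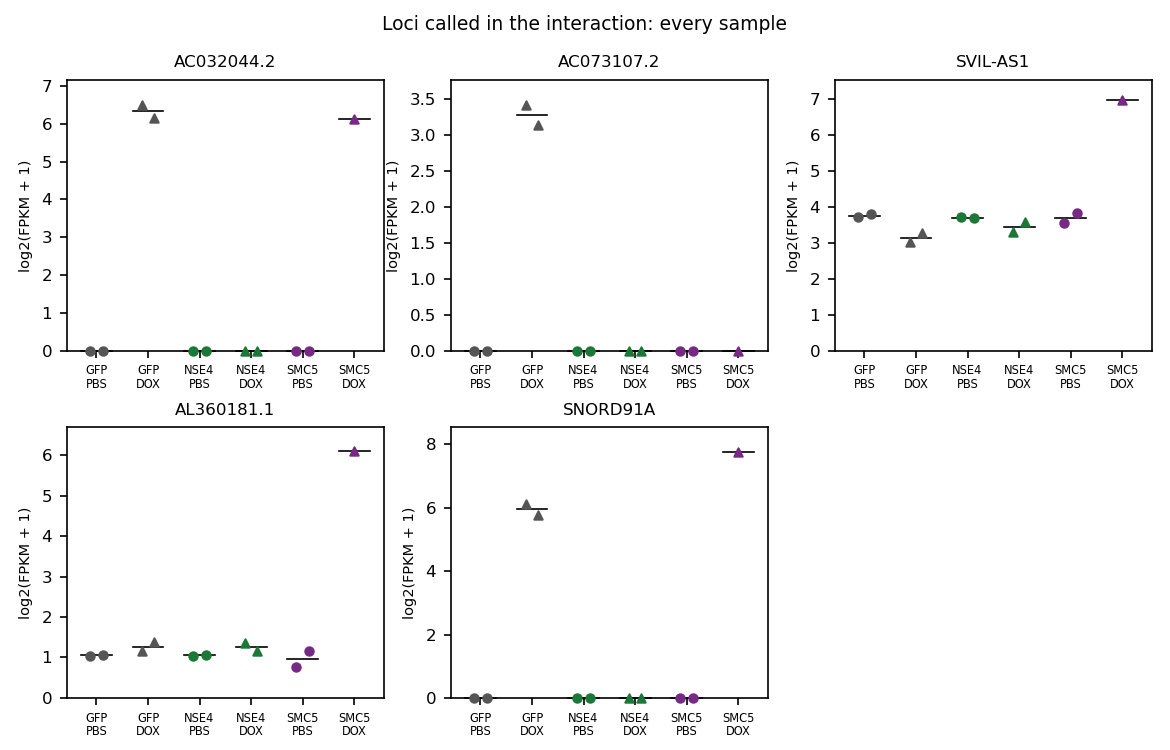
Level of the 5 called loci in each of the 11 samples, as log2(FPKM + 1); circles are PBS, triangles doxorubicin, bars the group mean, and grey, green and purple mark GFP, NSE4 and SMC5 cells. AC032044.2 and SNORD91A are at 0 in NSE4 cells with doxorubicin, AC073107.2 is above 0 only in GFP cells with doxorubicin, and SVIL-AS1 and AL360181.1 stand apart only in the single SMC5 sample.

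Of the 5 calls, 3 ended when 1 control library was left out, with adjusted p just over the threshold and values that stayed near those above (SVIL-AS1 2.0 to 2.18, AL360181.1 2.37 to 2.49, SNORD91A -1.89 to -2.07). Without GFP replicate 1 with PBS the adjusted p was 0.0527 for SVIL-AS1 and 0.0532 for AL360181.1 and SNORD91A, without GFP replicate 2 with PBS it was 0.0568 for all 3, and without GFP replicate 1 with doxorubicin it was 0.0536 for all 3. SNORD91A also missed the threshold without NSE4 replicate 2 with doxorubicin (0.0594) and without SMC5 replicate 1 with PBS (0.0538). AC032044.2 and AC073107.2 passed in all 10 of these fits. With a pseudocount of 0.1 none of the 5 passed (adjusted p 0.0508 to 0.907): the values were larger, at -4.92 for AC032044.2, -6.45 for AC073107.2, 2.23 for SVIL-AS1, 2.86 for AL360181.1 and -3.72 for SNORD91A, and so were their SEs, while 291 loci had an unadjusted p under 0.05.

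Each plasmid was also compared with GFP cells on its own; the comparisons share the GFP samples, so their values are given side by side. The NSE4 interaction was called at 5 loci, all lower (0.0316% of loci fitted): AC032044.2, SNORD91A, AC073107.2, AC068580.1 and AC243773.3. The filters set the direction at all 5, so that they were all lower is no result. AC068580.1, a transcript within the CTSD locus, was at 5.45 and 8.77 FPKM in GFP and 4.34 in SMC5 cells with doxorubicin and at 0 in the other 8 samples (-2.99, adjusted p = 0.0336). It reached a group mean of 5 FPKM only in GFP cells with doxorubicin, so the filter set its direction and its call is a description. AC243773.3 was at 8.31 and 5.74 in NSE4 cells with PBS and at 0 in the other 9 samples (-2.99, adjusted p = 0.0317); it passed the filters only through that group, so its call is a description. The calls of AC068580.1 and AC243773.3 ended with the replicate number as a block (adjusted p = 0.0843 and 0.0822), with a pseudocount of 0.1 and in 9 of 10 fits without 1 library each, at values of -2.69 to -2.99. AC073107.2 also ended with that pseudocount, and all 5 loci fall out where only loci above 0 in every sample are fitted. With only loci at a group mean of 5 or more, AC073107.2, AC068580.1 and AC243773.3 were not called (limma adjusted p = 0.178, 0.278 and 0.281). The SMC5 interaction was called at 3 loci (0.0189%), namely SVIL-AS1 and AL360181.1, higher, and AC073107.2, lower. The SMC5 call of AC073107.2 ended with the block (adjusted p = 0.076) and with only loci at a group mean of 5 or more (0.0768). It also ended with a pseudocount of 0.1, without GFP replicate 1 with doxorubicin (at -3.13) and with only loci above 0 in every sample. The direct comparison of the doxorubicin change in NSE4 and SMC5 cells, which uses no GFP sample, called 4 loci, all lower in NSE4 cells (0.0253%): AC032044.2, SNORD91A, SVIL-AS1 and AL360181.1. The filters set the direction at AC032044.2, SNORD91A and AL360181.1, so those calls are descriptions. SVIL-AS1 reached 5 FPKM in every group, and its call rests on the lone SMC5 sample with doxorubicin. A joint F test for any difference among the 3 plasmids, which would find loci where the plasmids act in opposite ways, called 6 (0.0379%), all among the 7 loci named above. At an unadjusted p under 0.05 these 4 tests held 236, 229, 195 and 211 of the 10727 loci. The 95% interval lay within -1 and 1 for 88.5% of loci in the NSE4 interaction, 84.2% in the SMC5 interaction and 85.2% between NSE4 and SMC5 cells.

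Among protein-coding genes with a symbol of their own, those of smallest p are given as values, none having passed. SHKBP1, which binds the EGFR adaptor CIN85, was at 41.7 and 42.3 FPKM in GFP cells with PBS and 67.4 and 63.6 with doxorubicin. In NSE4 cells it was 43.5 and 46.8 without and 38.6 and 44.1 with the drug, and in SMC5 cells 41.3 and 43.6 without and 47.0 with it. It rose in GFP cells (0.63, adjusted p = 0.00234) and stood at -0.13 in NSE4 and 0.14 in SMC5 cells, and the interaction was -0.62 (SE 0.13, 95% interval -0.91 to -0.33, adjusted p = 0.919). ZWILCH belongs to the RZZ complex of the mitotic checkpoint. With doxorubicin it stood at 20.2 and 18.4 FPKM in GFP and 15.4 in SMC5 cells, but at 9.14 and 8.85 in NSE4 cells. Without drug all 6 samples were at 6.42 to 8.70. It rose in GFP cells (1.27, adjusted p = 0.000263) and SMC5 cells (1.04, adjusted p = 0.00289), was at 0.09 in NSE4 cells, and had an NSE4 interaction of -1.19 (SE 0.17, adjusted p = 0.182). Averaged over both plasmids its interaction was smaller, at -0.81 to -0.61 in the fits without 1 library.

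ZBTB25, a zinc finger protein, was at 6.25 and 6.32 FPKM in GFP cells with doxorubicin and at 8.16 to 10.3 in the other 9 samples, with an interaction of 0.60 (SE 0.13, adjusted p = 1). COG3, a subunit of the Golgi COG complex, had 26.4 and 29.4 FPKM in control cells with PBS and 10.7 to 18.3 in the other 9 samples. Its interaction of 1.06 (SE 0.26) therefore came with a level that differed before the drug. OXSM, a mitochondrial fatty acid synthesis enzyme, was at 18.7 to 21.1 FPKM in the 6 samples with PBS. With doxorubicin it was 11.6 and 10.4 in GFP cells, 13.9 and 15.9 in NSE4 cells and 15.7 in SMC5 cells, an interaction of 0.52 (SE 0.13). RIOK2, a kinase of ribosome maturation, had 0.71 (SE 0.20) and LRTOMT 1.23 (SE 0.31), both with an adjusted p of 1.

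**Figure D3:**
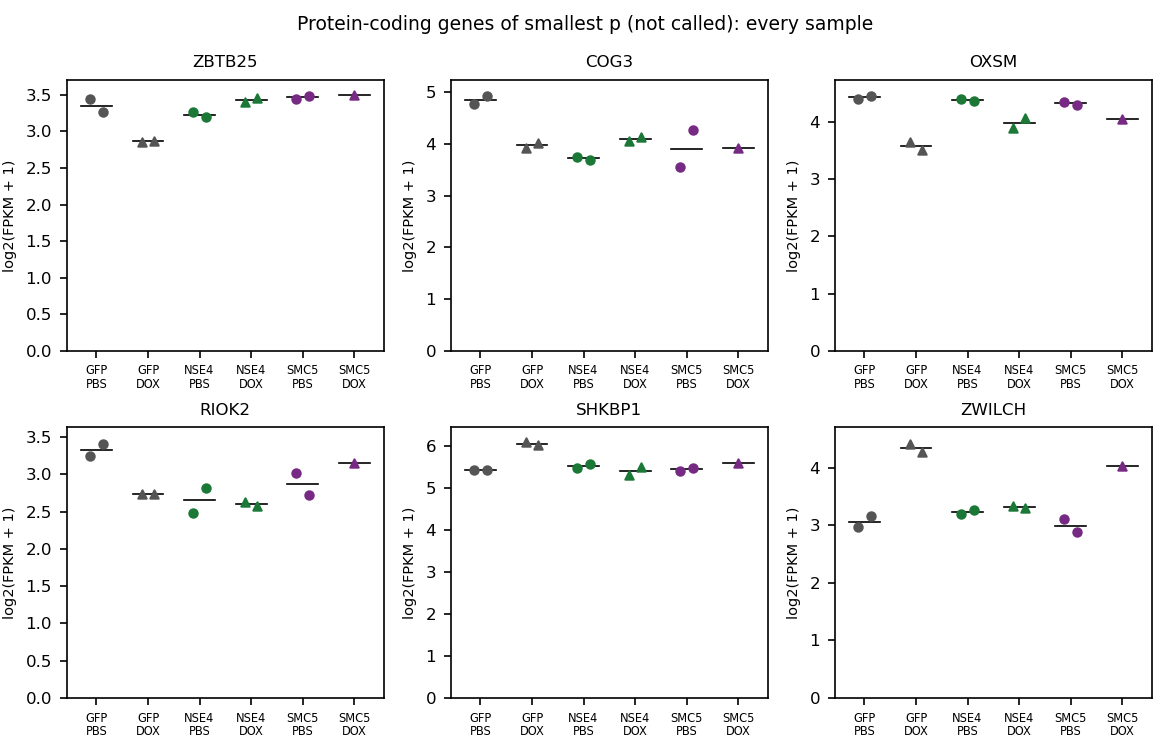
Level of 6 of the protein-coding genes of smallest p in each of the 11 samples, as log2(FPKM + 1), with symbols and colours for drug and plasmid as stated on the axis and bars at the group mean. None was called; SHKBP1 and ZBTB25 differ in GFP cells with doxorubicin, COG3 in GFP cells with PBS, and ZWILCH is low in NSE4 cells with doxorubicin.

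Genes of the pathways that doxorubicin engages were then described from 32 lists, in which loci shared with a second coding gene were left out. The lists held 425 entries among the loci described. None was called in the interaction by limma, beside 0.0316% of all loci fitted. Of the 425 entries 4 had an unadjusted limma p under 0.05 (STAG2, TOP2A, WDR12 and SMAD6), beside 2.66% of all 10727 loci described and fitted. For 395 of the 425 entries the 95% interval lay within -1 and 1. In the 29 lists with at least 5 such entries the median interaction ran from -0.11 to 0.11, beside -0.01 over all loci described. Counts of list genes that rose stand beside 17%, 16.3% and 11% of all loci fitted in GFP, NSE4 and SMC5 cells, and counts that fell beside 14.1%, 13.9% and 9.87%. Counts in SMC5 cells are lower over all loci too, and no change in a count from one background to another was tested.

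Genes of damage-induced arrest and death, a list that also holds repair genes such as XPC and DDB2, had the highest median drug change of the 29 lists under all 3 plasmids. Of 30 genes, 28 rose in GFP, 26 in NSE4 and 26 in SMC5 cells, with median log2 changes of 1.56, 1.61 and 1.62. All 30 interaction intervals lay within -1 and 1, and the median was 0.04. CDKN1A (p21), the inhibitor of cyclin-dependent kinases, was at 292 and 357 FPKM in GFP, 337 and 345 in NSE4 and 314 and 359 in SMC5 cells with PBS, and at 906 and 1083, 1067 and 1118, and 1059 with doxorubicin. All samples with drug lay above all samples without it. The GFP and NSE4 ranges with drug overlapped, and the SMC5 sample lay within the GFP range, an interaction of 0.05 (95% interval -0.32 to 0.42). The locus of MDM2, a ubiquitin ligase, rose by 2.19, 2.22 and 2.53, with an interaction of 0.19 (-0.32 to 0.69); CDKN1A, MDM2, BAX and BRCA1 were chosen after their values were seen. The list's extremes were PPM1D, a phosphatase that dampens damage signalling, at 0.22 (-0.29 to 0.72), and SESN1, a stress-induced regulator of mTORC1, at -0.13 (-0.44 to 0.18).

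Apoptosis genes held no call, and all 16 pro-apoptotic and all 7 anti-apoptotic intervals lay within -1 and 1. Of 16 pro-apoptotic BCL2 family members and caspases 10 rose in GFP, 7 in NSE4 and 5 in SMC5 cells (17%, 16.3% and 11% over all loci), with median drug changes of 0.53, 0.47 and 0.54 and a median interaction of -0.01. APAF1, the scaffold of the apoptosome, was at 6.5 to 8.85 FPKM in the 6 samples with PBS and at 19.4 to 24.2 in the 5 with drug, with an interaction of 0.08 (-0.19 to 0.35). BAX, which opens the outer mitochondrial membrane, had -0.11 (-0.58 to 0.37).

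Of 8 death receptors and adaptors 4 rose in each background (17%, 16.3% and 11% over all loci), with medians of 0.76, 0.86 and 0.77. TNFRSF10B (DR5), a receptor for TRAIL, rose by 1.40, 1.51 and 1.5 (interaction 0.10, -0.27 to 0.48). TNFRSF10D, a decoy receptor for TRAIL, had an interaction of -0.28 (-0.79 to 0.22), which was -0.05 without GFP replicate 1 with doxorubicin and -0.51 without replicate 2. Of the 7 anti-apoptotic genes 1 rose and 2 fell in each background, beside 17% and 14.1% over all loci in GFP cells. BIRC3, an inhibitor of apoptosis, fell by 1.3, 1.45 and 1.51, BCL2L1 by 0.59 in GFP cells and had an interaction of 0.08, and XIAP had an interaction of 0.26 (-0.11 to 0.62).

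All 18 G2/M and mitosis genes had an interaction below 0, with a median of -0.11, while 5645 of all 10727 loci were below 0; none was called. The count below 0 was 12 of 18 without NSE4 replicate 2 with PBS, 13 without GFP replicate 2 with doxorubicin and 15 to 18 without any other single library. CENPE, a kinetochore motor, was at 7.8 and 4.22 FPKM in GFP, 2.45 and 3.54 in NSE4 and 2.23 in SMC5 cells with doxorubicin, an interaction of -0.78 (-1.68 to 0.12). HMMR, a spindle protein, fell by 0.53, 0.64 and 1.15 in GFP, NSE4 and SMC5 cells, an interaction of -0.36 (-0.84 to 0.11). NUSAP1, a spindle protein that binds microtubules, rose by 0.68 in GFP and 0.49 in NSE4 cells and stood at 0.22 in SMC5 cells (-0.33, -0.77 to 0.12). Of 22 G1/S and replication genes 9 rose in GFP, 11 in NSE4 and 6 in SMC5 cells (17%, 16.3% and 11% over all loci), with a median interaction of 0.06. CCNE1 (cyclin E1) had -0.34 (-0.70 to 0.03) and CDC45, a subunit of the replicative helicase, 0.31 (-0.38 to 1.01).

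DNA repair genes, in which SMC5/6 itself acts, held no call. Of 19 homologous recombination and Fanconi genes 10 rose in GFP, 8 in NSE4 and 6 in SMC5 cells (17%, 16.3% and 11% over all loci), with a median interaction of 0.02. FANCC, of the Fanconi core complex, had 0.39 (-0.11 to 0.89), which was 0.12 without GFP replicate 1 with doxorubicin and 0.66 without replicate 2. BRCA1 had the lowest value, -0.82, with an SE of 1.45, since NSE4 cells with PBS were at 6.09 and 172 FPKM and all other samples at 7.88 to 11.1. Without NSE4 replicate 1 with PBS its interaction was -1.97 (adjusted p = 0.012) and without replicate 2 it was 0.33, so that 1 library set its direction. Among 8 genes of non-homologous end joining RIF1, which keeps broken ends from resection, had 0.29 (-0.11 to 0.69). RAD9A, of the 9-1-1 checkpoint clamp, rose by 1.09, 0.79 and 0.85.

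Of 20 cohesin and condensin genes, relatives of SMC5/6, STAG2 stood out in size without passing. STAG2 was at 35.0 and 34.3 FPKM in GFP, 32.4 and 42.5 in NSE4 and 29.7 and 31.3 in SMC5 cells with PBS. With doxorubicin it was 11.1 and 13.5 in GFP cells, 30.5 and 14.5 in NSE4 cells and 28.5 in SMC5 cells. It fell in GFP cells (-1.43, adjusted p = 0.00756), and its interaction was 0.99 (SE 0.37, 95% interval 0.14 to 1.83, adjusted p = 1); the 2 NSE4 samples with drug differed by more than 2-fold. SMC1A, the cohesin ATPase, had 0.44 (-0.04 to 0.93). TOP2A, the enzyme that doxorubicin traps, had 34.1 and 34.5 FPKM with PBS and 25.6 and 29.1 with the drug in GFP cells, and 25.8 to 32.6 in the 7 NSE4 and SMC5 samples, an interaction of 0.33 (0.01 to 0.65, adjusted p = 1). ABCC2, a drug export pump, rose by 0.49, 0.74 and 0.88 (interaction 0.32, -0.11 to 0.75), and CBR3, a carbonyl reductase that acts on anthracyclines, by 0.93, 0.55 and 0.66 (-0.33, -0.72 to 0.06).

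Cholesterol and ribosomal protein genes fell with the drug in all 3 backgrounds. Of 18 cholesterol synthesis genes 15, 15 and 14 fell in GFP, NSE4 and SMC5 cells, with medians of -0.88, -1.11 and -1.11. LSS (lanosterol synthase) had an interaction of -0.44 (-1.04 to 0.15) and MVK (mevalonate kinase) -0.34 (-0.81 to 0.13). Of 31 ribosomal protein genes 29, 29 and 28 fell, with medians of -0.87, -0.83 and -0.83 and all intervals within -1 and 1. RPL37 had the highest interaction of that list at 0.29 (-0.07 to 0.65), and RPL13 had -0.13 (-0.42 to 0.15). Of 20 ribosome biogenesis genes, WDR12, a factor of large-subunit assembly, was at 28.3 to 36.1 FPKM in the 6 samples with PBS and had -0.30 (-0.60 to -0.002, adjusted p = 1).

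**Figure D4:**
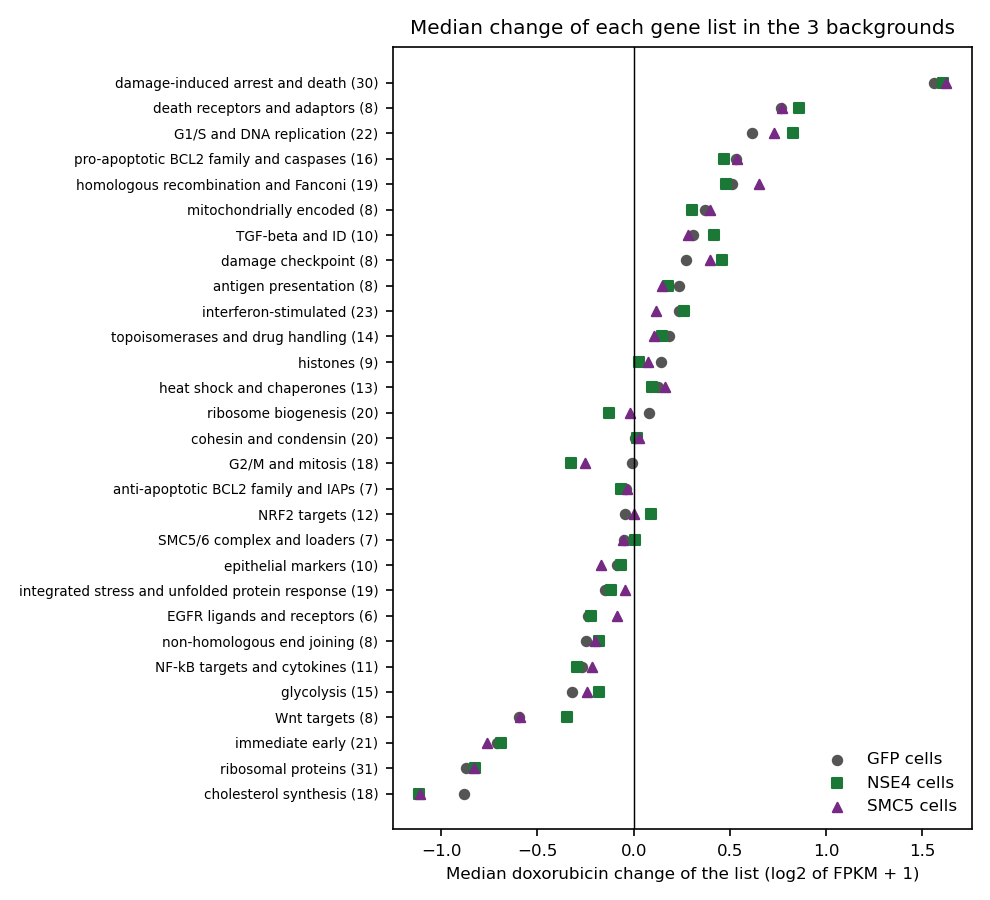
Median doxorubicin change (log2 of FPKM + 1) of each of the 29 gene lists with 5 or more entries, in GFP, NSE4 and SMC5 cells; the number of genes stands in brackets. Lists are ordered by GFP cells, from cholesterol synthesis (-0.88) to damage-induced arrest and death (1.56), and for that list the NSE4 and SMC5 medians are 1.61 and 1.62.

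Of 23 interferon-stimulated genes 9 rose in GFP, 7 in NSE4 and 5 in SMC5 cells (17%, 16.3% and 11% over all loci). Their interaction was below 0 at 18 of 23, with a median of -0.10, but at 11 of 23, with a median of 0.00, without GFP replicate 2 with doxorubicin. IRF1, a transcription factor of the interferon response, had 12.3 and 8.84 FPKM in GFP cells with PBS and 18.4 and 21.5 with the drug, against 11.1 to 15.1 and 15.4 to 18.0 in the plasmid cells (interaction -0.51, -1.07 to 0.05). IFNL1, an interferon lambda, was at 1.17 and 1.36 FPKM in GFP cells and 2.52 to 3.72 in plasmid cells with PBS, and rose in all 3 backgrounds (interaction -0.50, -1.02 to 0.03). IFI6, an interferon-induced mitochondrial protein, was at 916 and 1104 FPKM in GFP cells and 1302 to 1407 in plasmid cells with PBS (-0.23, -0.53 to 0.07). At these 2 genes the GFP and plasmid samples did not overlap before the drug was given. The share of all loci with such a gap was not counted, and both genes were named for a small interaction p.

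The remaining stress and growth lists held no call either. Among NF-kB targets TNFAIP2 rose by 1.37, 1.19 and 1.00 (-0.28, -0.72 to 0.15), and among immediate early genes KLF2, a Krüppel-like transcription factor, fell by 1.97, 2.25 and 2.20 (-0.25, -0.97 to 0.47). ASNS, asparagine synthetase and a target of ATF4, was at 45.7 and 118 FPKM in GFP cells with doxorubicin and at 43.1 to 53.9 in the 3 plasmid samples with it, an interaction of -0.60 (-1.65 to 0.45). CEBPB, a transcription factor of stress and inflammation, rose by 0.97, 0.78 and 0.78, and the small heat shock protein HSPB1 by 1.15, 0.99 and 1.03. GCLM, of glutathione synthesis, had 0.24 (-0.10 to 0.58) and TXNRD1, thioredoxin reductase, 0.17 (-0.14 to 0.48). SP5, a Wnt target, had 0.97 and 0.64 FPKM in GFP cells with PBS and 4.90 and 5.16 with doxorubicin, but at 1.36 and 6.76 in NSE4 cells without drug, and had -1.12 (-2.44 to 0.21). SMAD6, an inhibitor of BMP signalling, fell by 0.45 in GFP cells and had 0.38 (0.002 to 0.76, adjusted p = 1), and EGFR fell by 0.78, 0.62 and 0.56 (0.19, -0.21 to 0.59). KRT20, a keratin of differentiated colon epithelium, rose by 1.68, 2.04 and 1.74 (0.21, -0.24 to 0.66).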

How the data were processed

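The authors deposited FPKM values per locus from TopHat and Cufflinks, per the submitters' processing notes; versions and genome build are not given in the sources used here, so no coordinates are printed. Names, types and lengths were matched to GENCODE 29 (51871 of 56357 named loci), and 12 loci with dates for names were not named. All 12 columns were used. Loci with at least 1 FPKM in at least 2 samples (15833) were tested as log2(FPKM + 1) in 1 limma 3.58.1 fit (R 4.3.3) of the 6 groups with an intensity trend, on 11 samples and 5 residual degrees of freedom, with Benjamini-Hochberg adjustment over every locus fitted (threshold 0.05). "Rose", "fell" and "called" refer to it. Folds of low loci are understated on this scale. The fit was run on simulated data with normally distributed noise of the same spread in every group. That was a check of the code only and says nothing about listed zeros or the lone SMC5 sample. Tables were handled in pandas 2.3.3 (Python 3.11.15) and plots drawn in matplotlib 3.10.9. FPKM is no count, so no count test was run, and depth limits precision most at short loci.

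The loci, lists and tests were chosen with earlier results of these data known. The text names the SMC5/6 genes, every called locus, the 10 smallest p-values in each direction among single-symbol loci, of which some are given, and up to 3 genes of smallest p per list; other genes are marked. The AL360181.1 locus has 2 symbols and, like the genes that overlap called loci, was named after its values were seen. Alternatives were 2 scalings, other filters and pseudocounts, a GC adjustment, no intensity trend, the replicate number as a block, each library left out, the SMC5 columns singly and apart, protein-coding loci alone, and a test against a 1.2-fold change. A few genes within this rule were left out. List counts without single libraries were added after seeing the data.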

Additional observations from a re-analysis of the deposited data

Results flagged for a closer look

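Each of the following loci had an adjusted p under 0.05 for the difference in doxorubicin change between plasmids. Values are log2 interactions, and 0 protein-coding loci are among them. The filters set the direction at AC073107.2, AC068580.1, AC243773.3 and AL360181.1, whose calls are descriptions. The same holds for AC032044.2 and SNORD91A in NSE4 against GFP cells and in NSE4 against SMC5 cells. For the average of both plasmids against GFP cells these were AC032044.2 at -3.264, AC073107.2 at -3.271, SVIL-AS1 at 2.134, the locus of AL360181.1 and BANF1P2 at 2.474, and SNORD91A at -2.075. For NSE4 against GFP cells they were AC032044.2 at -6.328, AC073107.2 at -3.271, SNORD91A at -5.949, AC068580.1 at -2.989 and AC243773.3 at -2.985. For SMC5 against GFP cells they were AC073107.2 at -3.271, SVIL-AS1 at 3.908 and AL360181.1 at 4.949. For NSE4 against SMC5 cells they were AC032044.2 at -6.129, SVIL-AS1 at -3.548, AL360181.1 at -4.949 and SNORD91A at -7.748.

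Of the 5 loci called for the average, 3 are listed at 0 in every library of at least 1 group, as are 123 of the 10727 loci fitted. The other 2, SVIL-AS1 and AL360181.1, were high in the lone SMC5 sample with doxorubicin. Among the 10727 loci described and fitted, that sample was more than 2-fold above every other sample at 8, and the other 10 samples were so at 1 to 17. The filter of 2 samples leaves out loci high in 1 sample alone, and 22 of the 97 it leaves out were highest in that sample. The part of short transcript length and of 1 unreplicated sample in these calls was not tested.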

How the results depend on the processing

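The interaction of both plasmids was called at 5 loci, and the same 5 were called under quantile normalization, median ratio scaling, no intensity trend, a GC adjustment (GC known for 96.6% of loci fitted), either SMC5 column with drug alone, and a test against a 1.2-fold change. With only loci at a group mean of 5 or more it was called at 7. Without a filter on low values the counts were 28 for both plasmids (23 higher, 5 lower), 27 for SMC5, 29 for NSE4 against SMC5 and 31 for the joint test. With 12 columns as separate samples they were 28 (23 higher, 5 lower), 31, 34 and 36; of those first 28, 21 were at 1 FPKM or more only in SMC5 cells with drug. With only loci at a group mean of 5 or more, NSE4 had 2, SMC5 10, NSE4 against SMC5 12 and the joint test 11. With loci above 0 in every sample the counts were 2 for both plasmids, 0 for NSE4 (226 at an unadjusted p under 0.05), 2 for NSE4 against SMC5 and 2 for the joint test. A pseudocount of 0.1 gave 0 for both plasmids (291 unadjusted) and 2 for NSE4. Protein-coding loci alone gave 0 in limma in all 5 tests, with 181, 164, 151, 120 and 126 at an unadjusted p under 0.05.

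No label says whether replicates that share a number across groups come from the same split culture. The correlation of their replicate differences over the 10 pairs of groups ran from -0.073 to 0.105, with 1 pair over 0.1. Between PBS and doxorubicin it was 0.001 in GFP cells and 0.043 in NSE4 cells. These correlations cannot decide whether the replicates are paired, because spread between single libraries also enters them. With the replicate number as a block the counts were 5 for both plasmids, 3 for NSE4, 2 for SMC5, 4 for NSE4 against SMC5 and 5 for the joint test.

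Leaving out 1 library at a time, with a lone remaining sample assumed to vary like the other groups, gave 5 to 9 loci for both plasmids, 4 to 11 for NSE4, 3 to 11 for SMC5, 5 to 13 for NSE4 against SMC5 and 9 to 14 for the joint test. The interaction changed sign within the ranges -0.31 to 1.51 for SMC5, -0.18 to 0.02 for NSMCE2, -0.14 to 0.06 for NSMCE4A (0.13 under quantile normalization), -0.08 to 0.13 for SMC6, -0.04 to 0.19 for BCL2L1, -0.41 to 0.05 for BIRC3, -0.04 to 0.25 for TNFRSF10B and -1.27 to 0.07 for ASNS. It did so too for CDKN1A (-0.1 to 0.2), MDM2 (-0.01 to 0.38), BAX (-0.26 to 0.05) and BRCA1 (-1.97 to 0.33). Of the 69 named loci, 28 others kept their sign but moved by over 1.5 times without some library, and 29 did neither. The causes were not tested.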
